A study of Mus musculus with 30 samples.

Results

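The genes described here are 9 genes of epithelial cell contacts and of the simple epithelial keratin skeleton, *Epcam*, *Cldn3*, *Cldn4*, *Cldn6*, *Cldn7*, *Ocln*, *Krt8*, *Krt18* and *Krt19*. Each was taken as the transcript cluster of an Affymetrix Mouse Gene array that carries its symbol alone, and where several did, as the cluster of highest mean over all arrays. All 9 were found, on 10 clusters of 41345, since *Krt18* has 2. The arrays measured total RNA of 2 mouse cell lines in 10 groups of 3 samples, 30 samples in all, and differences were tested over 25341 clusters with a gene symbol.

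The mESCs are an embryonic stem cell line kept with leukemia inhibitory factor on arrested fibroblasts, separated from them and held on gelatin for 24 h before transfection. The iMOP cells are a monoclonal line made from Sox2-expressing cochlear progenitors of the mouse embryo by transient c-Myc, and grow in suspension with basic fibroblast growth factor. Each line was studied unmanipulated (UT) and 48 h after transfection with 1 of 4 plasmids driven by the EF-1 alpha promoter. All 4 carry red fluorescent protein (RFP). pT carries RFP alone, pAT adds Atoh1, the transcription factor that starts hair cell development, p183T adds the miR-183 family hairpins in an intron of human beta globin, and p183AT holds both. Transfected cells were sorted for RFP, which limits every transfected group to cells that took up plasmid. No source used here states whether UT cells went through the sorter. The reagent was Lipofectamine 2000 for mESCs and Jet Prime for iMOP cells. Sorted mESCs were collected in medium but iMOP cells in lysis buffer, so reagent, collection and line cannot be told apart. The paper also grew mESCs with serum and iMOP cells with a serum-free supplement. Culture and line therefore cannot be told apart either, in UT cells as well.

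Epithelial cells seal the space between them with tight junctions, in which claudins form the strands and occludin is a second membrane-spanning partner. Epcam is a homophilic adhesion molecule of epithelia and of pluripotent cells that binds claudins, and Krt8 with its partner Krt18 forms the first keratin filaments of the embryo, with Krt19 as a further type I chain of simple epithelia. Embryonic stem cells grow as compact epithelial colonies, and cells that leave this state commonly exchange E-cadherin for N-cadherin through E-box binding repressors of the Snail and Zeb families.

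Upstream sequences of some of the 9 genes are shown because the Snail and Zeb repressors are known to bind CAGGTG, read CACCTG on the other strand. RefSeq (GRCm38.p6) sequences before a transcript start were matched by symbol for 8 of 9 genes, with none used here for *Krt19* and with 2 starts each for *Cldn7* and *Ocln*. Each line below is 250 bases that end just before the start, 5′ to 3′ on the gene's strand, and capitals mark CAGGTG or CACCTG. *Epcam*, *Cldn4*, *Cldn6*, *Krt18* and *Krt8* are given for the differences described below, and *Cldn3* because its levels in the 2 lines lay closest.
Epcam (chr17:87635729-87635978, plus strand): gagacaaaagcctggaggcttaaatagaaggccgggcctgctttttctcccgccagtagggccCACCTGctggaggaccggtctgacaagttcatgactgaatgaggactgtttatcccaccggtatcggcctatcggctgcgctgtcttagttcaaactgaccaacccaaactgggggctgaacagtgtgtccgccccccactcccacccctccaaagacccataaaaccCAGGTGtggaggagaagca
Cldn4 (chr5:134946935-134947184, minus strand): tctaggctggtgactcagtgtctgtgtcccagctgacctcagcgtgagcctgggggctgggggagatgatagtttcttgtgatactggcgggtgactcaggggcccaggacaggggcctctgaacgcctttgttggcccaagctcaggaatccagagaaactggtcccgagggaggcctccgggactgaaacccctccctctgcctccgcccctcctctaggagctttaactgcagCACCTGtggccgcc
Cldn6 (chr17:23679115-23679364, plus strand): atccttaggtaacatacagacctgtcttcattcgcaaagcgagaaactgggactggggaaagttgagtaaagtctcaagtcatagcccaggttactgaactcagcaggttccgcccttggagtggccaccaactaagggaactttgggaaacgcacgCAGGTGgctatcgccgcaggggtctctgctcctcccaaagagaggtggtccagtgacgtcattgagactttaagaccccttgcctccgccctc
Krt18 (chr15:102027966-102028215, plus strand): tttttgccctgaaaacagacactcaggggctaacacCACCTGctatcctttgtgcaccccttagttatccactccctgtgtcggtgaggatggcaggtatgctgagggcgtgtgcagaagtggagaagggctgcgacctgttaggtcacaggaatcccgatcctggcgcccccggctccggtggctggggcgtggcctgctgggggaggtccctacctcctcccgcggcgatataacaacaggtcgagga
Krt8 (chr15:102004343-102004592, minus strand): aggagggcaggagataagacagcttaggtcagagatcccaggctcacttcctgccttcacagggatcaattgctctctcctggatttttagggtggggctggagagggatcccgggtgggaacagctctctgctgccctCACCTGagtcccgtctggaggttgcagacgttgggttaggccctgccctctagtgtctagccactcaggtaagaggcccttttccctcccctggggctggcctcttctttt
Cldn3 (chr5:134985964-134986213, plus strand): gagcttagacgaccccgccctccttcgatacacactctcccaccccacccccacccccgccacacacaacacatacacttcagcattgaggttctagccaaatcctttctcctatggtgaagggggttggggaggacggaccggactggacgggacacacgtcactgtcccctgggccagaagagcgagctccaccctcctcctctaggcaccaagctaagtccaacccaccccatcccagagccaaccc

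*Epcam* held 2 matches, at 187 and 19 bases before the start, counted to the first base of the match. *Cldn4* held 1 at 14 bases, *Cldn6* 1 at 93, *Krt18* 1 at 214 and *Krt8* 1 at 111, while *Cldn3* held none. *Cldn7* and *Ocln*, not printed, each held none at 1 start and 2 matches at the other. Over the 10 sequences of the 8 genes, 7 held CAGGTG or CACCTG, beside 17.2% of 32851 mouse sequences of the same length. CAGCTG, another E-box, which reads the same on both strands, was in 1 of 10 (*Cldn4*) and in 13% of all. CCGGTT or AACCGG, part of the Grainyhead site, was in 2 of 10 (1 sequence each of *Cldn7* and *Ocln*) and in 5.62% of all. GGGCGG or CCGCCC, the core bound by Sp factors, was in 7 of 10 and 32.7%, and TATAAA or TTTATA in 0 of 10 and 12.4%. Both E-boxes have the frame CANNTG and were counted apart, both strands were searched, and a match is a description of the sequence and not a site of binding. In GRCm38.p6 *Cldn4* and *Cldn3* lie 39.3 kb apart on chromosome 5 and *Krt8* and *Krt18* 23.9 kb apart on chromosome 15, *Epcam* and *Cldn6* lie far apart on chromosome 17, *Cldn7* and *Krt19* on chromosome 11 and *Ocln* on chromosome 13.

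The values are log2 levels made by the authors with RMA. Array medians lay between 4.37 and 4.69, and a group mean under 5 is called dim here, as 48.3% to 53.7% of all clusters were in a group. Arrays of one group correlated at 0.965 to 0.987. The samples are titled biological replicates, with no statement of how separately their cultures were grown. A p-value here weighs a difference against the spread of these samples, which may not cover that between independent cultures. Beside the vectors, *Atoh1* was higher with pAT and p183AT than without, by 1.25 ± 0.11 (SE) in mESCs and 1.25 ± 0.13 in iMOP cells, and *Mir183*, *Mir96* and *Mir182* were 2.78 to 5.62 higher with p183AT than pAT, so the genes of the plasmids went with the labels. Of 8 pluripotency genes all were lower in untransfected iMOP cells, *Nr0b1* by the most at -8.19. Of 7 otic progenitor genes 6 were higher, *Fabp7* and *Dlx5* by 5.53 and 5.38. The other otic gene, *Sox2*, was called lower, at a mean of 8.64 in iMOP cells against 10.70 in mESCs.

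Untransfected iMOP cells had less RNA of 8 of the 9 genes than untransfected mESCs, and the ninth, *Cldn3*, was not called (limma over the 6 arrays, adjusted p under 0.05). Of all clusters tested 39.2% were called lower and 18.3% higher. The median difference of the 9 genes was -2.08, against -0.20 for all clusters. In bulk RNA, fewer cells of a type and less RNA per cell cannot be told apart.

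*Epcam* had the largest measured difference of the 9. Its log2 level was 9.34, 9.21 and 9.46 in the 3 untransfected mESC samples and 2.94, 3.29 and 3.18 in the 3 iMOP samples. Every mESC sample was bright and every iMOP sample was dim, with a difference of -6.20 ± 0.14 (SE), a 73.5-fold lower measured level (adjusted p = 2.4e-10). The values carry no detection call, so a fold against a dim group, here and below, is that of the measured values and may understate the difference in RNA. Over all 30 arrays the lowest mESC value was 9.21 and the highest iMOP value 3.73, a gap of 5.49 over all vectors.

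The claudins did not behave as one. *Cldn4*, a claudin that tightens the seal against sodium, stood at 8.77, 8.66 and 8.46 in untransfected mESCs and at 4.34, 3.90 and 4.43 in iMOP cells, a difference of -4.41 ± 0.16 (adjusted p = 5e-09). *Cldn6*, a claudin of embryonic epithelia, stood at 7.08, 7.06 and 6.80 against 3.50, 3.33 and 3.72, a difference of -3.46 ± 0.14 (adjusted p = 1.2e-08). Both were far apart in the 2 lines, and both were dim in all 5 iMOP groups. *Cldn7*, a claudin that partners Epcam in epithelia, was dim in 4 of 5 mESC groups and all 5 iMOP groups, with a difference of -1.07 ± 0.20 (adjusted p = 0.00099). *Cldn3*, a sealing claudin, was at 5.98, 5.86 and 5.68 in mESCs and at 5.23, 5.46 and 5.80 in iMOP cells. These ranges overlapped, and the difference of -0.34 (95% interval -0.70 to 0.02) had an adjusted p of 0.093. It was the only one of the 9 whose mESC and iMOP arrays overlapped over all 30. The share of all clusters with such an overlap was not counted.

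*Ocln*, which codes for occludin, stood at 5.69, 6.26 and 6.44 in mESCs and 4.05, 4.08 and 4.14 in iMOP cells. All 3 iMOP samples were below all 3 mESC samples, by -2.04 ± 0.18 on average (adjusted p = 3.6e-06). Such an order was not counted over all clusters.

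Of the keratins, *Krt8* was the one that stayed above the dim level in iMOP cells. It stood at 7.34, 7.42 and 7.33 in mESCs and at 5.36, 5.10 and 5.39 in iMOP cells (-2.08 ± 0.13, adjusted p = 2.3e-07). *Krt18* stood at 6.50, 6.46 and 6.56 against 4.43, 3.89 and 4.09 (-2.37 ± 0.15, adjusted p = 2.9e-07). *Krt19* differed less, from a mean of 5.43 ± 0.20 (SD, n = 3) to 4.27 ± 0.10 (-1.15 ± 0.14, adjusted p = 3.6e-05). No keratin overlapped between the lines on any of the 30 arrays, although the gap was only 0.28 for *Krt19* against 1.62 for *Krt18*. The second *Krt18* cluster was lower (mean of 5.06 over 30 arrays against 5.87) and differed by -1.13 between the lines, also called.

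**Figure D1:**
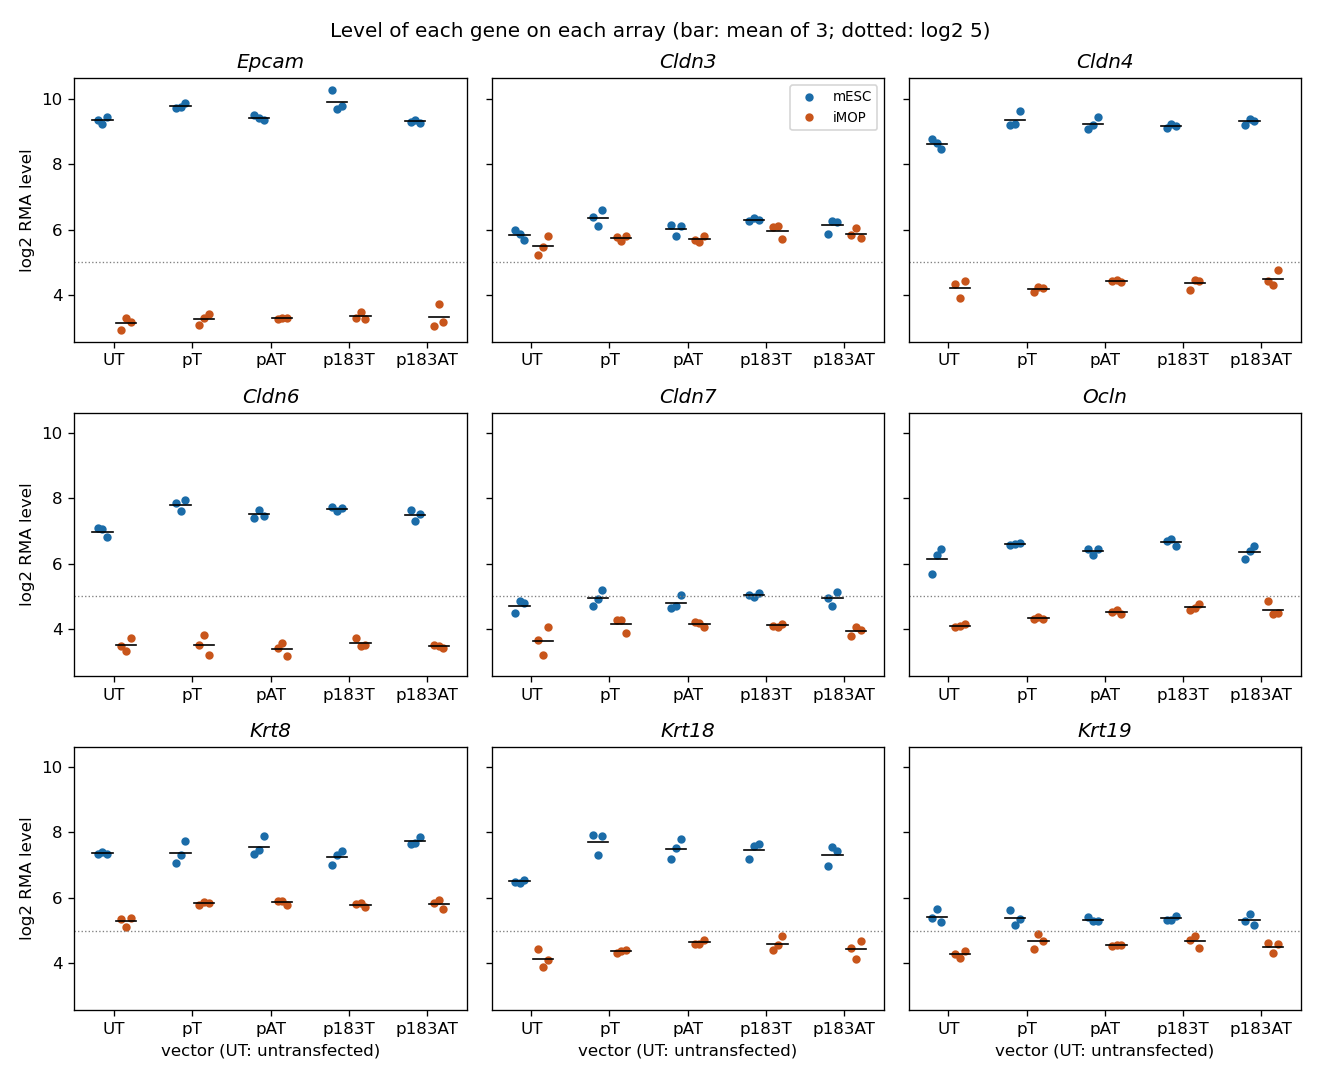
Log2 RMA level (vertical) of each of the 9 genes on each of the 30 arrays, by vector (horizontal) and cell line (colour); a bar is the mean of 3 arrays and the dotted line marks log2 5. Levels are comparable within a panel and not between genes. *Epcam*, *Cldn4* and *Cldn6* arrays of the 2 lines lie apart by 5.49, 3.70 and 2.98, and the *Cldn3* arrays overlap.

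With pT in both lines all 9 genes were called lower in iMOP cells (a fit of all 30 arrays), where 37.9% of clusters were, with a median of -2.26 against -0.10 for all clusters. *Epcam* differed by -6.51 ± 0.15, *Cldn4* by -5.17 ± 0.15, *Cldn6* by -4.29 ± 0.15 and *Krt18* by -3.35 ± 0.19 (adjusted p of 1.2e-15 at most). *Cldn3* was called here at -0.62 ± 0.15 (adjusted p = 0.00085). After quantile normalization over all 30 arrays, which moved the median of all clusters to 0.11, *Cldn3* stood at -0.17 (adjusted p = 0.35), and the other 8 were still called lower. The scale also sets the balance of calls over all clusters. Of clusters called between untransfected lines 4640 were higher and 9922 lower in iMOP cells as deposited, and 7104 and 6901 after that normalization, with 6086 and 9614 becoming 8898 and 7000 for pT.

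**Figure D2:**
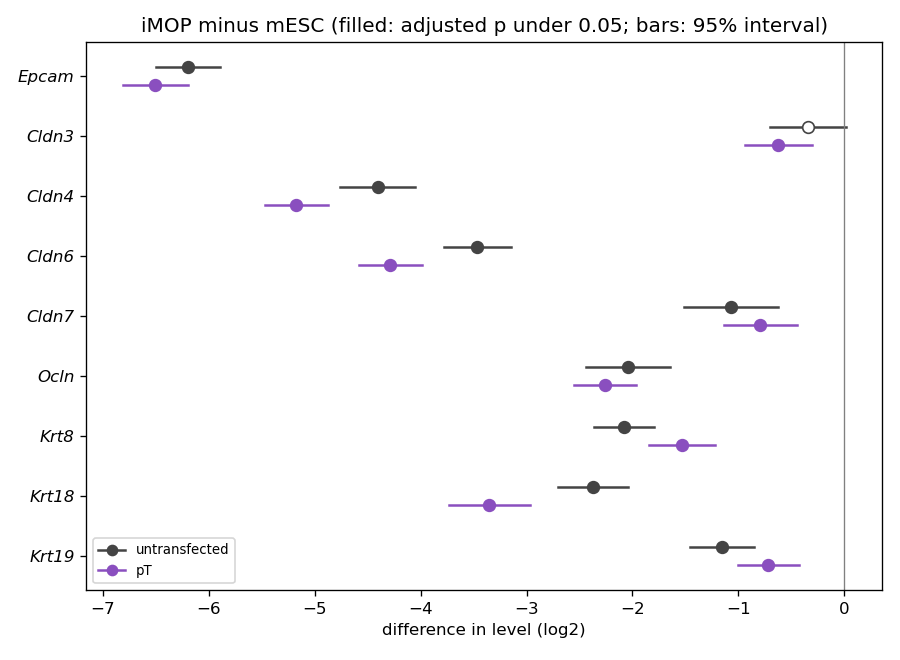
Difference in log2 level, iMOP minus mESC (horizontal), for each gene, untransfected (dark grey) and with pT (violet); points are limma estimates, bars 95% intervals, filled points have an adjusted p under 0.05. All points lie below 0, from -6.51 for *Epcam* with pT to -0.34 for untransfected *Cldn3*, and *Cldn3* with pT lost its call after quantile normalization.

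Other genes of the same structures were read from lists written from textbook knowledge. Of 19 epithelial regulators and membrane proteins 16 were lower in untransfected iMOP cells and 1 was higher, with a median of -2.13. *Spint2* and *Spint1*, membrane-bound inhibitors of serine proteases, differed by -4.99 and -3.81, the protease *St14* (matriptase), which they inhibit, by -4.16, and the transcription factor *Klf5* by -4.76. The 1 that was higher was *Cd24a*, a surface glycoprotein also of neural progenitors, by 3.19.

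Of 11 adherens junction genes 10 were lower and 0 higher (median -0.91), led by *Cdh1*, which codes for E-cadherin, at -5.51 ± 0.17, and *Jup*, which codes for plakoglobin, at -2.79. Of 11 desmosome genes 9 were lower and 0 higher (median -0.80), with *Dsg2*, a desmosomal cadherin, at -3.50 and *Dsp*, the plaque protein that holds keratin filaments, at -2.82. The 20 tight junction partners were mixed, with 10 lower and 5 higher (median -0.47). *F11r*, the junctional adhesion molecule JAM-A, was at -4.47 and *Ildr1*, an angulin of tricellular contacts, at -3.41, while *Jam3*, its relative JAM-C, was at 2.04. So the lower RNA covered cell contact genes of several kinds and not those of tight junctions alone.

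The other families of claudins and keratins moved less. Of 19 other claudins 6 were lower and 2 higher, with a median of -0.10 that became 0.12 after quantile normalization. Of 15 other keratins 7 were lower and 0 higher as deposited, but 3 and 2 after quantile normalization. *Krt17*, a keratin of basal and stressed epithelia, stood out at -4.31, from 6.93 to 2.62. The medians of the other keratins, the 3 junction lists and the epithelial regulators kept their sign under that normalization but came closer to 0. The tight junction median became -0.23 with 10 lower and 7 higher, that of adherens junctions -0.51 with 8 lower, that of desmosomes -0.54 with 6 lower, that of other keratins -0.23 and that of the epithelial regulators -1.82 with 15 lower.

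Genes of mesenchymal cells and of the epithelial to mesenchymal transition did not run opposite to the 9 genes as a group, as 7 of 13 were lower and 5 higher. *Cdh2*, which codes for N-cadherin, was 3.61 higher, while *Fn1*, *Acta2* and *Mmp2* fell below mESC levels, at -3.25, -3.16 and -2.99. The repressors differed both ways. *Zeb1* had means of 6.33 in untransfected iMOP cells and 5.36 in mESCs, *Snai1* 4.99 and 5.19, and *Snai2* 5.34 and 5.98. With pT these means were 5.16 and 5.30, 6.01 and 5.47, and 4.83 and 6.41. *Zeb2* had no cluster with its symbol alone. The part of these repressors in the levels of the 9 genes was not tested. Of the 13 fibroblast genes 10 were lower in iMOP cells. Their mean level was 4.64 to 4.71 on untransfected mESC arrays and 4.01 to 4.09 on iMOP arrays, with *Col1a1* at 6.21 in mESCs and 7 of 13 genes dim there. The part of leftover feeder fibroblasts in the levels of the 9 genes was not tested.

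**Figure D3:**
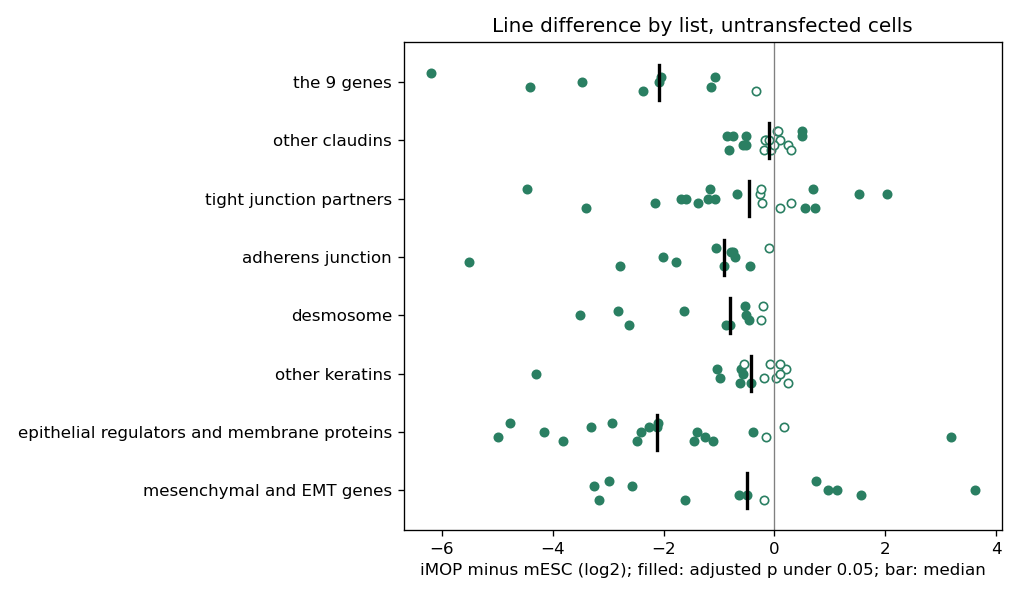
Difference in log2 level between untransfected lines, iMOP minus mESC (horizontal), for each measured gene of 8 lists (rows); filled points have an adjusted p under 0.05 and the bar is the list's median. The 9 genes and the epithelial regulators have medians of -2.08 and -2.13, and the bar for other claudins, at -0.10, changed sign after quantile normalization.

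Several of these genes were higher in mESCs that carried the control plasmid. With pT, set against UT cells in a fit over that line's 15 arrays, 5 of 9 were higher and 0 lower, where 7.07% of all clusters were higher. The median of the 9 was 0.46 against -0.02 for all clusters. Transfection, plasmid and sorting came together in pT cells and cannot be told apart.

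*Krt18* rose most, from the 6.50, 6.46 and 6.56 given above to 7.93, 7.32 and 7.89 with pT (1.21 ± 0.20, a 2.31-fold rise, adjusted p = 0.00064). Its partner *Krt8* was at 7.07, 7.31 and 7.75 with pT and differed by 0.01 (95% interval -0.36 to 0.38, adjusted p = 0.98). Every *Krt18* sample with pT was above every untransfected one, whereas the *Krt8* values with pT lay on both sides of the untransfected ones. The second *Krt18* cluster gave 0.96 with an adjusted p of 0.11.

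*Cldn6* rose to 7.86, 7.61 and 7.94 (0.82 ± 0.13, adjusted p = 0.00034) and *Cldn4* to 9.20, 9.23 and 9.62 (0.72 ± 0.13, adjusted p = 0.0017). Both had groups that did not overlap, and so did *Ocln*, which was not called. The share of all clusters with groups apart in this way, as also for *Krt18*, was not counted. *Cldn3* was higher by 0.53 ± 0.15 (adjusted p = 0.026) and *Epcam* by 0.44 ± 0.13 (adjusted p = 0.04, with 9.71, 9.74 and 9.87). Leaving out any 1 of 4 samples (UT replicate 2 or 3, pT replicate 1 or 3) took *Cldn3* to an adjusted p of 0.059 to 0.12, and leaving out any sample but UT replicate 3 took *Epcam* to 0.078 to 0.14. *Epcam* also lost its call after quantile normalization (0.058), which left 4 of 9 called, and in a fit of all 30 arrays (0.054), and *Cldn3* lost its call in a fit of only the 6 arrays compared (0.053). *Ocln* was at 0.46 (adjusted p = 0.075), *Cldn7* at 0.23 (0.40) and *Krt19* at -0.04 (0.89).

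The levels of *Cldn4*, *Cldn6* and *Krt18* stayed high with the other plasmids. *Epcam* did not, with means of 9.411 with pAT and 9.305 with p183AT against 9.336 in UT. *Cldn3* with pAT, at 5.805 to 6.152, overlapped UT, at 5.681 to 5.979. *Cldn4*, *Cldn6* and *Krt18* had UT as the lowest of the 5 mESC groups, with no overlap with the nearest transfected group, and the 4 transfected means ran from 9.16 to 9.35, 7.49 to 7.80 and 7.32 to 7.71. Neighbours among these transfected groups overlapped. How many of all clusters had UT apart in this way was not counted.

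Genes of the other lists moved both ways with pT in mESCs, where 6.07% of all clusters were lower. Of 20 tight junction partners 4 were higher and 2 lower, with *Patj*, a scaffold of the apical Crumbs complex, at 0.92 and *Ildr1* at -0.86, and *Cdh1* differed by -0.02 (adjusted p = 0.95). Of 15 other keratins 1 was higher and 3 lower, among them *Krt17* at -1.66, a keratin moving opposite to *Krt18*. Of 9 primitive endoderm genes, some of which accompany simple keratins in the embryo, 4 were higher and 0 lower, with the endocytic adaptor *Dab2* at 1.16 and the transcription factor *Gata6* at 1.13, and the list's mean level went from 5.35 to 5.54 on UT arrays to 5.78 to 6.03 with pT. Of 9 trophectoderm genes 1 was higher and 1 lower, with mean levels of 5.27 to 5.51 and 5.32 to 5.52, and of 8 pluripotency genes 3 were lower, *Nr0b1* at -1.05. The part of primitive endoderm-like cells in the 5 higher genes was not tested.

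In iMOP cells 3 of 9 genes were higher with pT and 0 lower, where 19.4% of clusters were higher, and the median of the 9 was 0.25 against 0.09 for all clusters. *Krt8* rose from 5.36, 5.10 and 5.39 to 5.79, 5.88 and 5.85 (0.56 ± 0.13, adjusted p = 0.0016), with groups apart. Groups were also apart for *Krt19* and for *Ocln*, which was not called, and the share over all clusters was not counted. *Cldn7* (0.50 ± 0.18, adjusted p = 0.028) and *Krt19* (0.39 ± 0.15, adjusted p = 0.038) were dim in both groups. These 2 lost their calls in a fit of only the 6 arrays compared (adjusted p of 0.097 and 0.079), and each also when any 1 of 4 arrays was left out, UT replicate 1 or 2 or pT replicate 2 for both, pT replicate 1 for *Cldn7* (0.057 to 0.20) and pT replicate 3 for *Krt19* (0.077 to 0.18).

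The iMOP members of other lists moved both ways. Of 20 tight junction partners 8 were lower and 2 higher, and of 11 adherens junction genes 6 were lower and 2 higher, where 21.9% of all clusters were lower. *Mpp5*, the Crumbs complex scaffold PALS1, was at -1.83, *Tjp1*, which codes for the tight junction scaffold ZO-1, at -1.50, *Afdn*, the actin-binding nectin partner afadin, at -1.37 and *Ctnna1*, alpha catenin, at -1.11. Of 15 other keratins 5 were higher and 0 lower, with *Krt17* at 1.08 and *Krt80* at 0.75, and all but *Krt7* dim in both groups. Of 9 trophectoderm genes 7 were higher, with a mean level of 4.35 to 4.49 on UT arrays and 4.74 to 4.96 with pT and 4 of 9 dim with pT. The part of this shift in the 3 calls was not tested.

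The 2 lines differed in 4 of these responses by a test of the difference itself, in all 30 arrays, where 35.6% of clusters were called and the median of all clusters was 0.12. The response of *Krt18* was 0.98 ± 0.26 smaller in iMOP cells (difference -0.98, adjusted p = 0.0043), that of *Cldn6* differed by -0.82 ± 0.21 (adjusted p = 0.0025) and that of *Cldn4* by -0.77 ± 0.21 (adjusted p = 0.0045). In iMOP cells the responses of these 3 genes were 0.23, 0.00 and -0.05, all among dim values. *Krt8* went the other way, at 0.55 ± 0.21 (adjusted p = 0.046), a call that was lost when any 1 of 9 arrays was left out (all of the 12 compared but mESC pT replicate 3, iMOP UT replicate 3 and iMOP pT replicate 1), with adjusted p of 0.05 to 0.17, *Krt8* then at 0.39 to 0.59. With the second *Krt18* cluster the difference was -0.22 (adjusted p = 0.71).

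**Figure D4:**
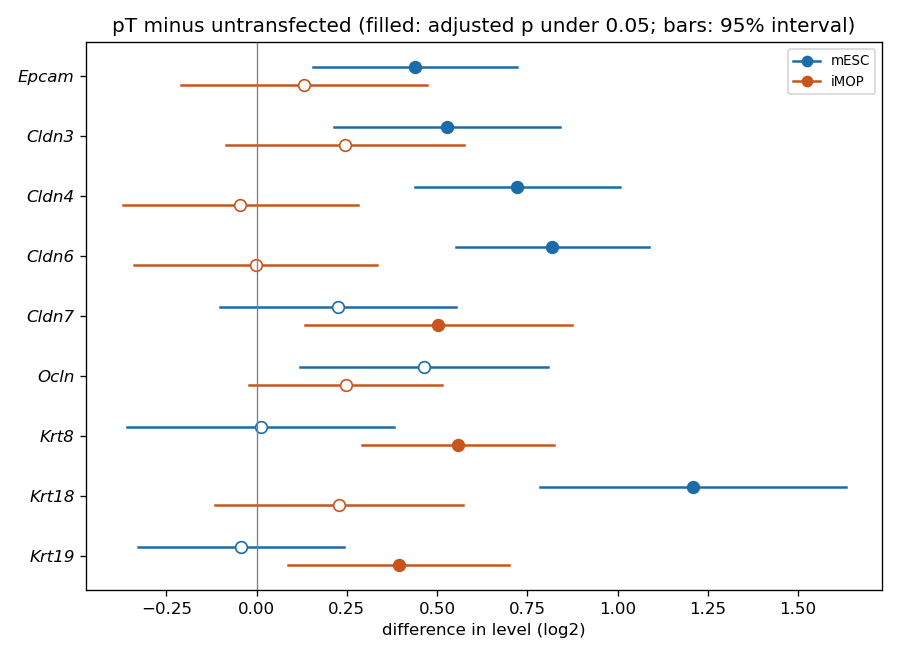
Difference in log2 level, pT minus untransfected (horizontal), for each gene in mESCs (blue) and iMOP cells (orange); points are limma estimates, bars 95% intervals, filled points have an adjusted p under 0.05. *Krt18*, *Cldn6* and *Cldn4* rose in mESCs by 1.21, 0.82 and 0.72, and *Krt8* in iMOP cells by 0.56.

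Atoh1 was compared as the mean of pAT and p183AT against the mean of pT and p183T in each line, so 6 arrays stood on each side. The paper reports lower RFP from the plasmids that also make Atoh1, and cells were sorted for RFP. Atoh1 itself and the level of plasmid expression therefore cannot be told apart here. In mESCs *Epcam* was the 1 gene of 9 called, and it was lower, where 1.13% of clusters were lower. Its levels were 9.49, 9.40 and 9.33 with pAT and 9.29, 9.35 and 9.27 with p183AT, against 9.71, 9.74 and 9.87 with pT and 10.26, 9.70 and 9.77 with p183T. All 6 arrays with Atoh1 were below all 6 without, as they were for 1.36% of all clusters. The difference was -0.48 ± 0.09 (95% interval -0.68 to -0.28, a 1.4-fold lower level, adjusted p = 0.0083), and it stayed called when any 1 of the 12 arrays was left out (-0.54 to -0.40). The levels with Atoh1 were close to the 9.21 to 9.46 of untransfected mESCs.

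*Ocln* had the same order without a call. Its 6 arrays with Atoh1 were at 6.14 to 6.54, just below the 6.54 to 6.77 of the other 6, and it differed by -0.26 ± 0.11 (adjusted p = 0.29). *Cldn3* was at -0.25 and *Cldn6* at -0.24 (adjusted p of 0.25 and 0.19), and *Krt8* was at 0.33 ± 0.12 (adjusted p = 0.19), the opposite sign. *Cldn4*, *Cldn7*, *Krt18* and *Krt19* lay between -0.18 and 0.01. The median of the 9 was -0.18 against 0.01 for all clusters, and 5 of 9 had an unadjusted p under 0.05, as did 3744 of 25341 clusters.

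Taken pair by pair, none of the 9 genes was called in mESCs. The shares of all clusters called were 0.797% for pAT against pT, 1.05% for p183AT against pT, and 0.0118% both for p183T against pT and for p183AT against pAT, where the 3 clusters were the hairpins of the plasmid. *Epcam* was at -0.36 ± 0.13 with pAT (adjusted p = 0.39) and -0.47 ± 0.13 with p183AT (0.14), comparisons that share the pT arrays. Unadjusted p-values were under 0.05 for 3 genes with pAT, 2 with p183AT and 0 in the other 2 pairs. Of 25341 clusters 2111 were under 0.05 with pAT and 2797 with p183AT, each against pT. For p183T against pT 591 were, and for p183AT against pAT 1235. With the miR-183 family alone the 9 genes differed from pT by -0.24 to 0.13.

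Beside *Epcam*, 5 of 13 genes of the mesenchymal list were higher with Atoh1 in mESCs and 0 lower, where 1.77% of all clusters were higher. *Snai2*, a repressor of the Snail family, went from a mean of 6.43 to 7.71 (1.28 ± 0.11, adjusted p = 8.1e-06) and *Cdh2* from 6.34 to 7.42 (1.08 ± 0.09, adjusted p = 2.5e-06). *Cdh1* differed by 0.03 (adjusted p = 0.91), so N-cadherin RNA rose while no change of E-cadherin RNA was called. Of 19 epithelial regulators 2 were lower, *Rab25*, a small GTPase of apical recycling, at -0.63 and *Ap1m2*, the epithelial subunit of the AP-1B adaptor, at -0.36. Among 20 tight junction partners 1 was lower, *Jam2*, a junctional adhesion molecule, at -0.67, and of 15 other keratins 1 was higher, *Krt20*, a keratin of intestinal epithelium, at 0.75, from a dim 4.12 to a dim 4.87. No gene of the adherens junction, desmosome or other claudin lists was called by limma, with 4 of 11, 3 of 11 and 2 of 19 at an unadjusted p under 0.05.

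Markers of other cell types moved in the same samples. Of 9 primitive endoderm genes 7 were higher with Atoh1, with *Pdgfra* at 0.76, *Dab2* at 0.74 and *Gata6* at 0.65. Their mean level was 6.27 to 6.41 on pAT arrays and 6.45 to 6.52 on p183AT arrays, against 5.78 to 6.03 with pT and 5.85 to 6.01 with p183T. Of 8 pluripotency genes 3 were lower, *Nr0b1* at -0.86, *Zfp42* at -0.46 and *Nanog* at -0.36, and limma called no fibroblast or trophectoderm gene, with 2 of 13 and 1 of 9 at an unadjusted p under 0.05. Their part in the lower *Epcam* RNA was not tested.

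In iMOP cells limma called 0 of 9 genes with Atoh1, where 0.331% of clusters were called. The differences of the 9 ran from -0.15 for *Krt19* to 0.19 for *Cldn4*. At an unadjusted p under 0.05 were 0 of 9 genes and 2295 of 25341 clusters. *Epcam*, dim throughout, differed by 0.00 (95% interval -0.24 to 0.24). Among the genes of the other epithelial lists 1 was called, *Rab25*, which rose from 4.85 to 6.29 (1.44 ± 0.13, adjusted p = 7.3e-06). *Rab25* thus moved in opposite directions in the 2 lines, and the difference between them was 2.07 ± 0.17 (adjusted p = 4.6e-09).

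Pair by pair the shares of clusters called in iMOP cells were 0.0197% for pAT, 0.0118% for p183T and 0.138% for p183AT, each against pT, and 0.0118% for p183AT against pAT, with 0 of 9 genes in each. *Ocln* with p183T had the 1 unadjusted p under 0.05 among these (0.33 ± 0.13, limma adjusted p = 1), at 4.60, 4.64 and 4.75 against 4.31, 4.39 and 4.32 with pT, all dim.

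The Atoh1 difference between the lines had an unadjusted p under 0.05 for 2 of the 9 genes, as for 2942 of 25341 clusters. It was called for 0 of 9 genes, where 1.39% of clusters were called. For *Epcam* it was 0.48 ± 0.15 (95% interval 0.17 to 0.79, limma adjusted p = 0.13), so the lower *Epcam* of mESCs was not shown to differ from the iMOP response. Called differences in the other lists included *Snai2* (-1.53), *Cdh2* (-0.96) and *Krt20* (-0.80), each relative to the mESC response.

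**Figure D5:**
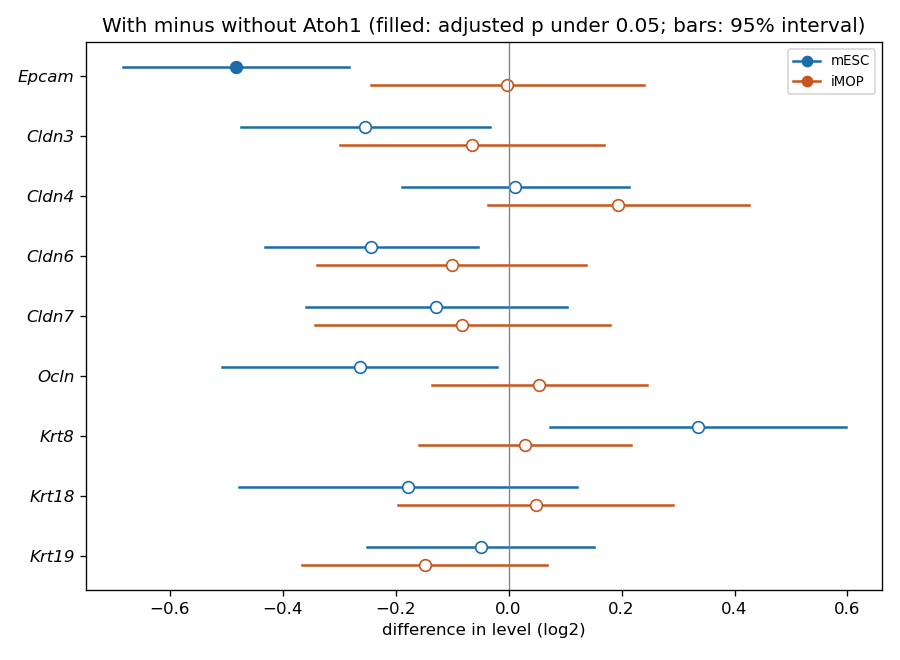
Difference in log2 level with minus without Atoh1 (horizontal; pAT and p183AT against pT and p183T) for each gene in mESCs (blue) and iMOP cells (orange); points are limma estimates, bars 95% intervals, filled points have an adjusted p under 0.05. *Epcam* in mESCs, at -0.48, is the 1 filled point.

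Within a line the 9 genes moved together in part. Over the 15 mESC arrays the 36 pairs had correlations from -0.55 to 0.87 with a median of 0.42, and 26 were positive. Pairs of other genes were not correlated for comparison, so these values do not set the 9 genes apart. *Cldn4* with *Krt18* (0.87), *Cldn6* with *Krt18* (0.80) and *Cldn4* with *Cldn6* (0.80) were among the closest, and *Epcam* with *Krt8* was at -0.55. After subtracting group means the median fell to 0.10, so the shared part lay mostly between groups, and the arrays share their groups and normalization. In the 15 iMOP arrays the median was 0.41 and 0.14 after subtracting group means, among values that were mostly dim.

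The clusters most like the mean of the 9 genes, each centred, were found among those with a mean of at least 6 in 1 group. Over 15 mESC arrays they were *Sqstm1* (Pearson r = 0.95), *Efr3b*, *Ctsd*, *Smurf1* and *Gclm* (0.92 to 0.94). Over 15 iMOP arrays they were *2700046G09Rik* (0.94), *Gm3878*, *Cox5b*, *Map1s* and *Slc8b1* (0.92 to 0.93). Over the 10 group means they were *Gpc3*, *Mapkapk3*, *Tmem141*, *Clgn* and *Gstm4*, an order that rests on the gap between the 2 lines, so no coefficient is given.

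For each gene the 10 groups can be put in order. The 5 mESC groups came first for 8 of 9, a share that was not counted for all clusters. Within a line most neighbours overlapped. Of the 9 steps between neighbours 5 to 9 overlapped, with all 9 for *Cldn3* and 5 for *Ocln*, whose dim iMOP levels went from 4.09 (UT) over 4.34 (pT) to 4.52 to 4.66 with the other plasmids. The order of *Krt19* in mESCs spanned only 0.10 from its highest group, UT, to its lowest, p183AT, against 1.21 for *Krt18*, 0.82 for *Cldn6* and 0.60 for *Epcam*.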

How the data were processed

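The authors' deposited values are log2 levels per transcript cluster, made by RMA in Affymetrix Expression Console 1.4.1.46 from 200 ng of total RNA labelled with the WT PLUS kit, per the labels. No source used here states which arrays went into 1 RMA run. All 30 columns were mapped to samples by the sample identifier in the header, and samples to groups by title. Symbols came from the platform annotation, in which 23521 clusters had 1 symbol, 1820 several and 16004 none. Differences were tested on the values as deposited by moderated statistics of limma 3.58.1 under R 4.3.3, with Benjamini-Hochberg adjustment over the 25341 clusters with a symbol and a threshold of 0.05. Untransfected lines were fitted on 6 arrays, contrasts within a line on its 15, and contrasts of both lines with transfected cells on all 30. Fits were tested on simulated data. The number of arrays limits the precision, and depth has no meaning here.

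The members and lists were chosen with earlier results of these data known. Named are the 9 genes, the vectors' genes, and up to 4 called genes of largest change per list and comparison, plus markers whose level stands beside a result. *Cd24a*, *Sox2*, *Zeb1*, *Snai1* and *Snai2* between the lines, and *Cdh1* and *Jam3* outside this rule, were chosen after their values were seen. The clusters most like the 9 genes are the 5 of highest correlation. A further 6 listed genes had no cluster with their symbol alone and are not analysed here. Deviations of same-numbered samples correlated over 0.1 in 11 of 36 pairs. In iMOP p183T against pT alone this held for all 3 pairs (0.147 to 0.321), and there a block changed no call. As alternatives, models were fitted to all 30 or to only the compared arrays, with a replicate block, an intensity trend or 1 cluster per symbol, after quantile normalization, without dim clusters, by the methods' one-way comparison, with the second *Krt18* cluster and leaving out each array in turn. Figures were drawn with matplotlib in Python.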

Additional observations from a re-analysis of the deposited data

Results flagged for a closer look

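For 4 genes the effect of pT against untransfected cells differed between the 2 lines by a test of the difference itself (limma over 30 arrays, iMOP minus mESC). The difference was -0.98 for *Krt18*, -0.82 for *Cldn6*, -0.77 for *Cldn4* and 0.55 for *Krt8*, with adjusted p of 0.0043, 0.0025, 0.0045 and 0.046. Of all clusters 35.6% were called in this test. The second *Krt18* cluster gave -0.22 (adjusted p = 0.71), and *Krt8* lost its call when any 1 of 9 of the 12 arrays compared was left out (adjusted p of 0.05 to 0.17). Groups of 3 arrays were too small for a test of single outlying samples.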

How the results depend on the processing

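Of 264 repeated counts of genes called 251 stayed within 1.5 times the count given above, and 13 did not. Most of the counts were 0 to begin with, and 0 again was taken as staying. Of the 13, 4 were for pT against untransfected cells in mESCs and 5 in iMOP cells. Of 583 repeated single-gene results 537 kept their direction and side of the threshold, 42 lost a call, 4 gained one and 0 changed sign. For pT against untransfected mESCs the methods' one-way comparison, adjusted, called 0 of 9 genes in place of 5 (adjusted p of 0.062 to 0.18 for those 5, and 5 genes at an unadjusted p under 0.05), and leaving out 1 array gave 3 to 5. For iMOP cells a fit of the compared arrays and the filter on dim clusters each called 1 in place of 3, and leaving out 1 array gave 1 to 3. At an unadjusted p under 0.05 the methods' comparison counted 2 genes for pAT and 1 for p183AT against pT in mESCs. In iMOP cells it counted 3 for pAT and 1 for p183T. Unadjusted, limma counted 3, 2, 0 and 1 for these pairs, and after adjustment 0 in each. The cause of these changes was not tested, and the filter removes dim clusters by construction.

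The replicate block gave 8 and 9 genes between the lines, and for pT against untransfected cells 5 in mESCs and 3 in iMOP cells, and 1 for Atoh1 in mESCs. The block moved counts over all clusters by over 1.5 times in 2 comparisons of iMOP cells, from 5 to 13 for pAT against pT and from 84 to 147 for Atoh1. Leaving out dim clusters changed counts over all clusters from 14562 to 8449 between untransfected lines, from 15700 to 9212 between lines with pT, from 202 to 309 for pAT against pT in mESCs and from 5 to 9 in iMOP cells. Leaving out iMOP UT replicate 3 gave a call to *Cldn3* between untransfected lines (adjusted p = 0.023), and *Ocln* in mESCs with pT was called in 1 fit of all arrays (0.031), with dim clusters left out (0.044) and without UT replicate 3 (0.027). Signal is a limit in iMOP cells, where 7 of the 9 genes were dim in all 5 groups.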
